A study of Nasonia vitripennis and Nasonia giraulti with 12 samples.

Results

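Of the 24337 genes counted in adult jewel wasps, 59 stood far higher in Nasonia giraulti females than in males of that species and than in either sex of its relative Nasonia vitripennis. They were chosen by their measured values. A gene was taken if its mean over the N. giraulti female libraries was at least 5 CPM (the share of a library's counts, scaled to the same total in each library), and if that mean was at least 2 units above each of the 3 other group means on the scale log2(mean CPM + 0.5). The high level in N. giraulti females is therefore how the 59 were picked, and it is given below as a description without a test. RNA came from whole bodies, 24 h after the adults left the pupal case, with 10 animals pooled per library. The 4 groups were females and males of N. vitripennis (strain AsymCX) and females and males of N. giraulti (strain R16A), each with 3 libraries that the labels describe as independent batches. A single strain stands for each species, no animal was treated, and the labels state no mating or host status.

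Nasonia are small parasitoid wasps whose females drill into the puparia of flies, inject venom and lay eggs on the host pupa inside. An unfertilised egg gives a haploid male, a fertilised one a diploid female. The female body carries organs that the male lacks, among them the ovaries and the venom apparatus, so many transcripts of whole females come from tissues without a male counterpart. In RNA of whole bodies, fewer cells of a type and less RNA per cell cannot be told apart. N. giraulti and N. vitripennis are close relatives that can be crossed in the laboratory once freed of their Wolbachia bacteria. The genes carry identifiers of a single numbered set that was used for both species. None of them matched the RefSeq gene table of N. vitripennis (0 of 24337), so what the 59 genes encode is not stated, no sequence is shown, and the tissue could not be checked against marker genes.

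Libraries held from 23763596 to 51374887 counts, and 32463168 to 39045479 in N. giraulti females. A total of 3 counts in a library, taken as the floor of detection, corresponds to 0.0584 to 0.126 CPM, for counting error alone. Libraries with the number 1 stood apart from those numbered 2 and 3 in each group on the third principal component, which held 5.38% of the variance. With the libraries numbered 2 and 3 alone the rule found 65 genes, 55 of them among the 59. CPM are shares of reads and are not corrected for gene length, so an order of genes by CPM is an order of reads and not of transcripts.

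Together the 59 genes took 2468, 2076 and 2021 CPM in the N. giraulti female libraries 1, 2 and 3. In N. vitripennis females they took 286, 235 and 301 CPM. In N. vitripennis males their sum was 61.4, 49.3 and 71.8 CPM, and in N. giraulti males 102, 77.8 and 79.5 CPM. The female sum of N. vitripennis, which the rule capped but did not set, was thus above the sums of both male groups in each library. The median member had 19.7 CPM in N. giraulti females, 1.42 in N. vitripennis females, 0.355 in N. vitripennis males and 0.440 in N. giraulti males. In N. giraulti females 7 members had 100 CPM or more, 22 had 20 to 100 CPM and 30 had 5 to 20 CPM.

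The wording "high only in N. giraulti females" fits the members to different degrees. A group mean of at least 5 CPM was also reached by 14 members in N. vitripennis females, by 5 in N. giraulti males and by 2 in N. vitripennis males. At the other end, 11 members stayed under 0.5 CPM in all 3 other groups, and a single member, Nasvi2EG034498, had at most 3 reads in each of them. Among the 58 members with over 3 reads in their next highest group, the ratio of N. giraulti females to that group ran from 4.21 to 315, with a median of 7.86. It was above 10 in 23 of them and above 50 in 6. In 58 of the 59, all N. giraulti female libraries lay above all 9 other libraries. Among all 9868 genes of at least 5 CPM in N. giraulti females that share was 4.19%, and since the rule used these groups nothing is read from the difference.

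**Figure D1:**
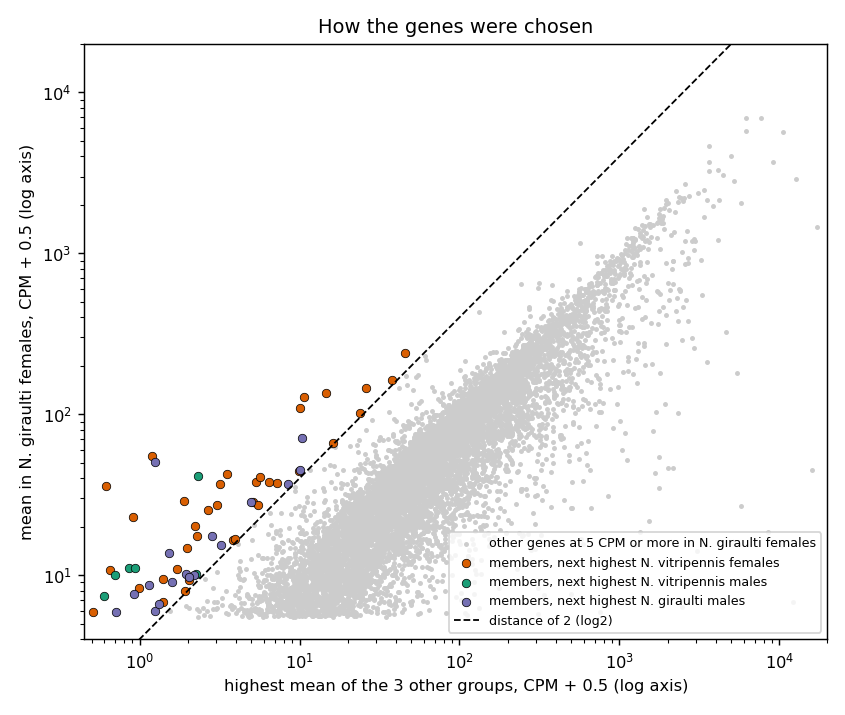
Each point is a gene of at least 5 CPM in N. giraulti females, with its mean there on the vertical axis and the highest of the 3 other group means on the horizontal axis, both as CPM + 0.5 on log axes. The 59 members, coloured by their next highest group, lie above the dashed line that marks a distance of 2 on the log2 scale, and the other genes of the 9868 are grey.

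The threshold cut through a continuous range. Just inside it lay Nasvi2EG008162, at a distance of 2.04, and Nasvi2EG016019, at 2.06. Just outside lay Nasvi2EG008142, at 1.997, with a mean of 62.9 CPM ± 24.0 (SD, n = 3) in N. giraulti females and 15.4 ± 8.23 in N. vitripennis females, and Nasvi2EG022916, at 1.98. In all, 35 genes lay between 1.5 and 2 and 23 members between 2 and 2.5, the named ones included. The rule found 45 genes when the CPM were scaled by trimmed means (TMM), all of them among the 59, and 24 when the distance was raised to 3.

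To see the same measure in libraries that had no part in the choice, the rule was applied to the libraries of any 2 numbers, and the genes it found were looked up in the 4 libraries left out. Leaving out the libraries numbered 1, it chose 65 genes, and 43 of these (66.2%) met the whole rule in the libraries left out. For number 2 the corresponding figures were 48 of 53 genes (90.6%), and for number 3 they were 46 of 65 (70.8%). Among all genes of at least 5 CPM in the N. giraulti female library left out, 0.556% to 0.866% met the rule. N. giraulti females were the highest group for 65 of 65, 52 of 53 and 65 of 65 of the chosen genes. The exception was Nasvi2EG011432, described below. The share of all genes with N. giraulti females highest was not counted, so nothing is read from these counts.

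The second highest group divided the members into 3 classes. For 36 of the 59 (61.0%) it was N. vitripennis females, for 17 (28.8%) N. giraulti males, and for 6 (10.2%) N. vitripennis males. Next to the same rule turned to the other groups, which found 102 genes for N. vitripennis females, 164 for N. vitripennis males and 88 for N. giraulti males, the N. giraulti females had the fewest. In the list of N. vitripennis females, the same sex of the other species was the next highest group for 45 of 102 genes. These lists share all 12 libraries, and their difference was not tested.

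**Figure D2:**
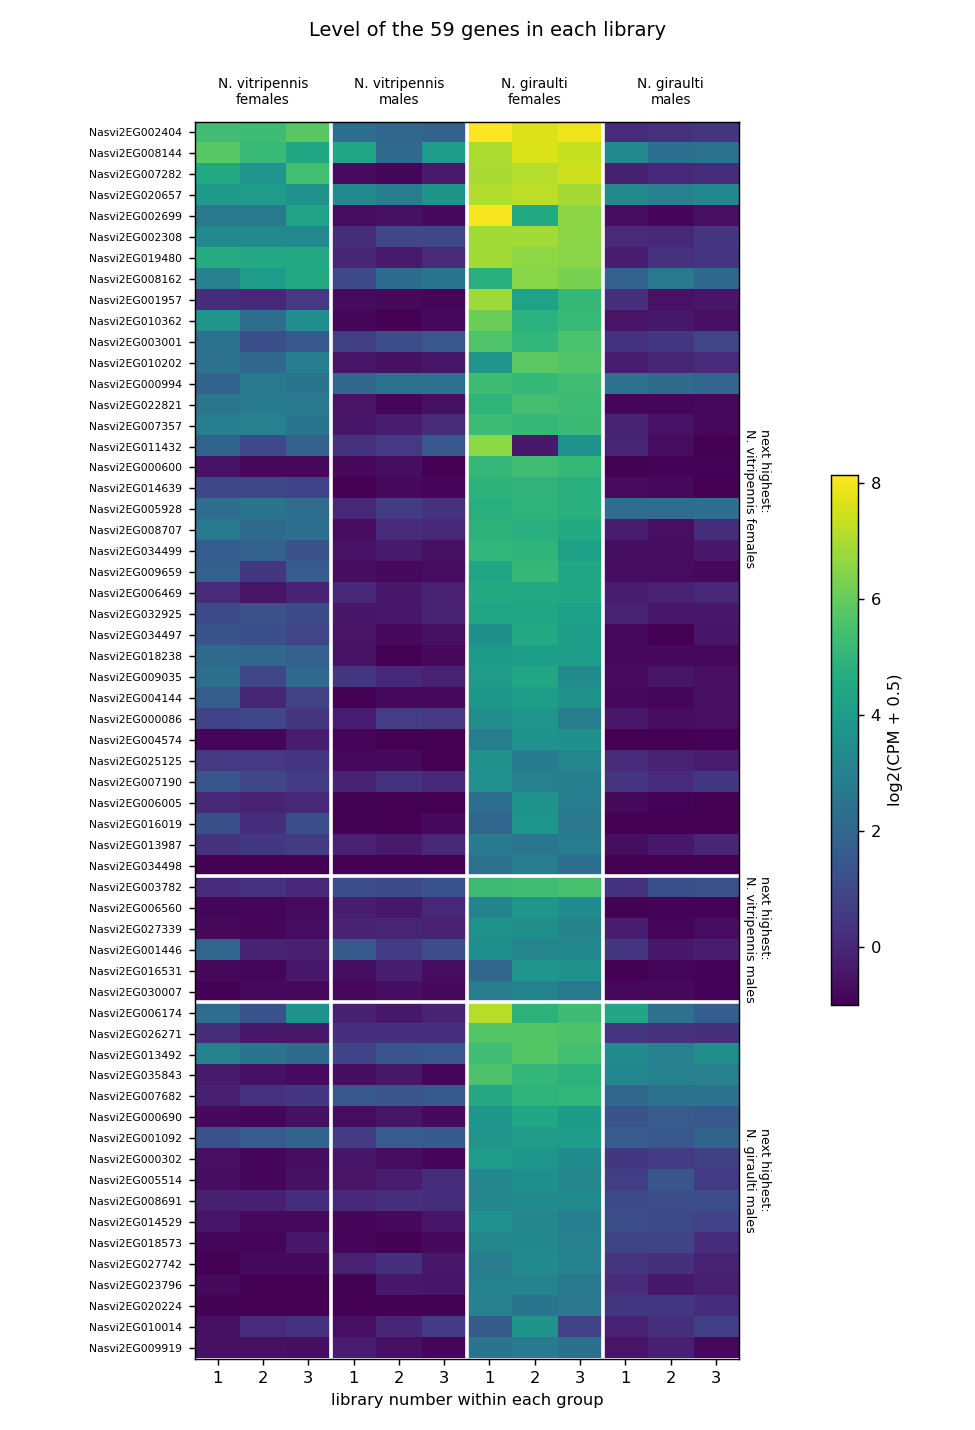
Rows are the 59 members, columns the 12 libraries by group and number, and colour is log2(CPM + 0.5). Rows are split by the next highest group, with 36, 6 and 17 members from top to bottom, and the N. giraulti female columns are the brightest in nearly every row. The dark cell among them is library 2 of Nasvi2EG011432, at 0.277 CPM.

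The members with the most reads in N. giraulti females were nearly all of the first class. Nasvi2EG002404 had 281, 201 and 241 CPM in the N. giraulti female libraries. It had 40.3, 39.3 and 55.9 CPM in N. vitripennis females and 4.61, 3.62 and 3.15 CPM in N. vitripennis males. In N. giraulti males it had 0.606, 0.729 and 0.868 CPM. No group overlapped another: N. giraulti males were lowest, and N. giraulti females stood 5.34-fold above N. vitripennis females by their means. Nasvi2EG007282 had 125, 139 and 173 CPM in N. giraulti females and 23.1, 13.1 and 40.9 CPM in N. vitripennis females, against 0.0421 to 0.283 CPM in the males of N. vitripennis and 0.379 to 0.642 in those of N. giraulti. The female libraries of both species thus lay far above all male libraries.

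Nasvi2EG019480 showed the same arrangement with a small spread, at 101 CPM ± 14.4 (SD, n = 3) in N. giraulti females and 23.5 ± 1.28 in N. vitripennis females. Its males stood at 0.449 ± 0.139 in N. vitripennis and 0.638 ± 0.251 in N. giraulti. Nasvi2EG002308 had 109 ± 13.3 CPM in N. giraulti females, 9.60 ± 0.225 in N. vitripennis females, and 1.18 ± 0.462 and 0.657 ± 0.183 in the males of N. vitripennis and N. giraulti. These members were read in females of both species and in far fewer reads in males. Nasvi2EG020657 differed from them, since it was found in all groups at like levels outside N. giraulti females. It had 135, 149 and 118 CPM there, and between 6.78 and 16.2 CPM in each of the 9 other libraries.

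Nasvi2EG008144 had 129, 198 and 163 CPM in N. giraulti females and 55.1, 35.5 and 21.1 CPM in N. vitripennis females. Its male values were 20.3, 4.0 and 15.6 CPM in N. vitripennis and 9.70, 4.50 and 4.98 CPM in N. giraulti, so it was present in all 4 groups. The remaining members among the 8 with the most reads, Nasvi2EG002699 and Nasvi2EG006174, varied widely between libraries and are described with that spread.

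The members farthest above their next highest group had low levels outside N. giraulti females, which the measure of distance favours. Nasvi2EG000600 had 33.3, 40.0 and 33.3 CPM there, and 13 reads in all N. vitripennis female libraries, 7 in N. vitripennis males and 3 in N. giraulti males. The mean ratio to N. vitripennis females was 315. Nasvi2EG026271 had 51.0, 51.6 and 47.8 CPM in N. giraulti females and between 0.245 and 0.783 CPM in the 9 other libraries, a ratio of 66.6 to N. giraulti males. Nasvi2EG006469 had 23.8, 22.6 and 21.4 CPM in N. giraulti females, and group means of 0.411, 0.387 and 0.409 CPM in N. vitripennis females, N. vitripennis males and N. giraulti males. Its level outside N. giraulti females was thus even across species and sex. Nasvi2EG001957, also among the 6, had means of 0.692 CPM in N. vitripennis females, 0.0739 in N. vitripennis males and 0.364 in N. giraulti males. Its calls and the spread of its N. giraulti female libraries are given below. Nasvi2EG004574 had 6.97, 12.1 and 11.5 CPM in N. giraulti females, with 14 reads in all N. vitripennis female libraries, 2 in N. vitripennis males and 1 in N. giraulti males.

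Nasvi2EG003782 had 38.4, 39.5 and 43.7 CPM in N. giraulti females and 1.8 CPM ± 0.169 (SD, n = 3) in its next highest group, N. vitripennis males. This row held fractional counts, which can arise where reads are divided between rows, so its level is uncertain. In all, 4 members (6.78%) held fractional counts, namely Nasvi2EG003782, Nasvi2EG016531, Nasvi2EG027742 and Nasvi2EG035843, against 18.2% of the 9868 genes of at least 5 CPM in N. giraulti females.

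The first tested comparison asked whether the members differed between the sexes of N. vitripennis. The N. giraulti libraries are not compared here, although they entered the shared fit, with its estimate of spread and its filter. The rule capped both groups from above and did not set their difference. Of the 59 members, 32 were higher in N. vitripennis females and 6 in N. vitripennis males, and 21 did not pass (quasi-likelihood test of edgeR, p adjusted after Benjamini and Hochberg, threshold 0.05, 3 libraries a group). Expressed as shares, 54.2% of the members were higher in N. vitripennis females where 32.4% of all 16536 genes tested were, and 10.2% were higher in males where 32.6% of all genes were. All 59 passed the filter on low counts, but with the libraries of this contrast alone 43 would have passed, so 16 owed their place to other groups. In a fit of these libraries alone, 29 of the 43 were higher in females and 3 in males. Of all 14914 genes tested in that fit, 5004 were higher in females and 5150 in males. A fit blocked by replicate number called 32 and 6 of the 59, against 36.1% and 38.7% of all genes tested. The 32 differed by 0.63 to 7.83 on the log2 scale, with a median of 3.76. Of these 32 calls 27 held in every alternative fit that tested them, and 5 of the 6 toward males did. A test against a 2-fold change was not counted here. Without overlap of libraries, 30 of the 59 members were higher in females and 7 in males. Of all 16536 genes tested, 5231 (31.6%) were higher in females without overlap and 6145 (37.2%) in males. Among the 32, 19 were at least 10-fold higher in females, 32.2% of the members against 6.75% of all genes tested. The shares over 59 include the 16. The rule required the members to be higher in females than in males of N. giraulti. All genes tested are therefore not a like background, and these shares are a description.

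Over the members, the median change from females to males was -1.62 on the log2 scale, and over all genes tested it was 0.22. Scaling moved the second value, to 0.79 with upper-quartile scaling, where the members stood at -1.10. Relative to all genes the members' median was -1.84 with TMM scaling and -1.88 with upper-quartile scaling. Of all calls in this contrast, 50.1% were higher in males with TMM scaling and 65.5% with upper-quartile scaling, and of the members' calls 15.8% and 25.0%.

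Among the members of the first class, 30 of 36 were higher in N. vitripennis females and 6 did not pass. The class was formed with the same libraries and requires females to stand above males, so nothing is read from this count or its direction. The members with the greatest female excess were Nasvi2EG010362, Nasvi2EG007282 and Nasvi2EG002699. Nasvi2EG010362 had 13.1, 4.36 and 10.7 CPM in N. vitripennis females and 4 reads in all N. vitripennis male libraries, a log2 fold change of -7.83 (SE 0.69, edgeR adjusted p = 6.07e-07). For Nasvi2EG007282 the change was -7.66 (SE 0.58, edgeR adjusted p = 1.66e-07). Nasvi2EG002699 had 6.0, 5.91 and 18.6 CPM in N. vitripennis females and 12 reads in all N. vitripennis male libraries, a change of -6.48 (SE 0.99, edgeR adjusted p = 0.000145). In each of the 3 the female libraries lay above the male libraries.

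The excess was smaller in other abundant members. Nasvi2EG002404 changed by -3.67 (SE 0.25) and Nasvi2EG019480 by -5.77 (SE 0.34), with edgeR adjusted p of 5.56e-08 and 1.39e-08. Nasvi2EG020657 was called at -0.63 (SE 0.26, edgeR adjusted p = 0.045), although its libraries overlapped between the sexes. Its call held in 5 of 16 alternative fits, with adjusted p from 0.0202 to 0.835. The call of Nasvi2EG008144, at -1.54 (SE 0.56, edgeR adjusted p = 0.0293), held in 11 of 16, with adjusted p from 0.0123 to 0.116. Nasvi2EG004574, at -2.79 (SE 1.06, edgeR adjusted p = 0.0343), was called in 11 of 15, with adjusted p from 0.0195 to 0.251. With 14 reads in N. vitripennis females and 2 in males, it passed the filter through other groups, and nothing is read from its call.

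On the male side, 2 members met the rule for naming. Nasvi2EG007682 had 2.36, 2.15 and 2.5 CPM in N. vitripennis males and 0.379, 0.734 and 0.847 in females, with no overlap and a log2 fold change of 1.74 (SE 0.34, edgeR adjusted p = 0.000653). For Nasvi2EG003782, whose row held fractional counts, it was 1.44 (SE 0.34, edgeR adjusted p = 0.00225). Both were thus higher in males of N. vitripennis and, by choice, in females of N. giraulti. The difference of the sex effects between the species holds the libraries that chose the members and was not tested.

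The second tested comparison set the males of the species against each other. Female libraries are not compared here but entered the shared fit and filter. Of the 59 members, 16 were higher in N. giraulti males and 4 in N. vitripennis males, and 39 did not pass (same test and threshold). The shares were 27.1% toward N. giraulti against 15.0% of all genes tested, and 6.78% toward N. vitripennis against 16.6%. By the rule, members were higher in N. giraulti than in N. vitripennis females, so all genes are again not a like background. Blocking by replicate number called 16 and 6 members, and the shares of all genes rose to 21.5% toward N. giraulti and 23.5% toward N. vitripennis, so the members' share toward N. giraulti lay closer to that of all genes. With the libraries of this contrast alone, 36 of the 59 would have passed the filter, and a fit of these libraries called 14 and 2 of them. Of all 15436 genes tested in that fit, 2122 were called toward N. giraulti and 2441 toward N. vitripennis. The 16 differed by 1.13 to 7.95 on the log2 scale, with a median of 2.85. Without overlap of libraries, 19 of the 59 members were higher in N. giraulti males and 8 in N. vitripennis males. Of all 16536 genes tested, 2658 (16.1%) were higher in N. giraulti males without overlap and 5127 (31.0%) in N. vitripennis males. The median change from N. vitripennis to N. giraulti males was 0.26 on the log2 scale in the members and -0.01 in all genes. With library size alone it was 0.06 for the members and -0.21 for all genes, and the share of all calls toward N. giraulti fell from 47.5% to 35.3%, while that of the members' calls was 80.0% and 78.9%.

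Of the 17 members whose next highest group was N. giraulti males, 11 were among the 16. This class requires N. giraulti males to stand above N. vitripennis males in the libraries tested, so nothing is read from the 11. Nasvi2EG035843 had 9.06, 7.61 and 7.31 CPM in N. giraulti males and 0.136, 0.252 and 0.0404 CPM in N. vitripennis males, a log2 fold change of 5.99 (SE 0.48, edgeR adjusted p = 1.87e-06). In females it had 47.1, 32.4 and 28.9 CPM in N. giraulti and 0.295, 0.163 and 0.102 CPM in N. vitripennis, so both sexes of N. giraulti lay above both sexes of N. vitripennis. Its row held fractional counts, and its level is uncertain. Nasvi2EG018573 had 1.31, 1.34 and 0.604 CPM in N. giraulti males and 4 reads in all N. vitripennis male libraries, a change of 4.83 (SE 0.74, edgeR adjusted p = 0.000224).

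Nasvi2EG006174 had 21.9, 5.01 and 2.79 CPM in N. giraulti males and 0.370, 0.252 and 0.444 CPM in N. vitripennis males. Its log2 fold change was 5.01 (SE 1.08, edgeR adjusted p = 0.00387), with library 1 far above the other two of its group. On the N. vitripennis side, Nasvi2EG002404 was the member that met the rule for naming, at -2.19 (SE 0.26, edgeR adjusted p = 3.12e-05). It was therefore higher in N. vitripennis than in N. giraulti among males, while among females N. giraulti was higher by the choice of the members.

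Reads of both species were counted against the same set of genes, and the labels do not name the reference for alignment. A difference between the species cannot be told apart from a difference in how well their reads aligned.

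**Figure D3:**
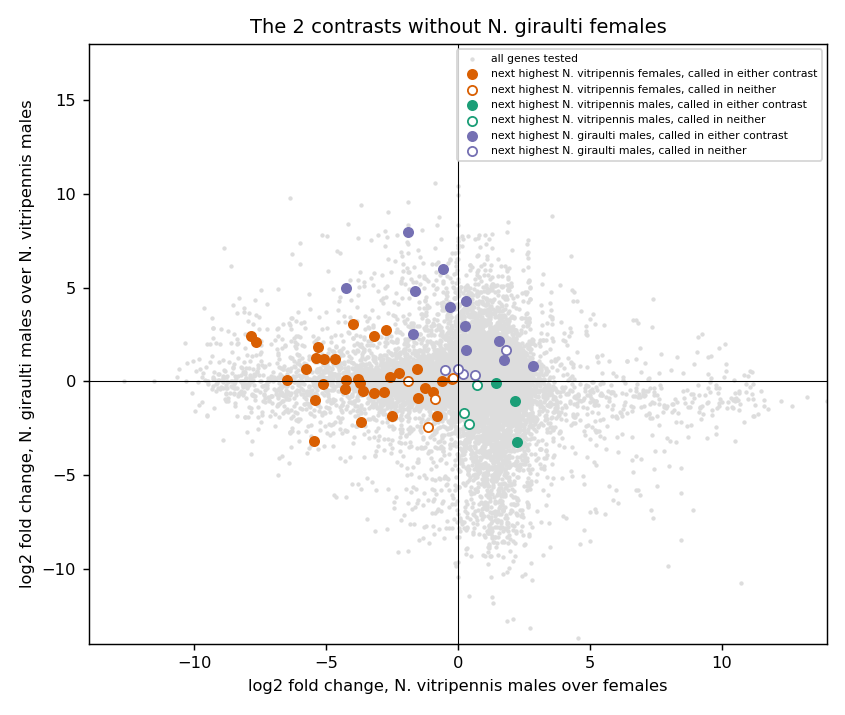
The horizontal axis gives the log2 fold change from N. vitripennis females to males and the vertical axis that from N. vitripennis to N. giraulti males, from edgeR. Grey points are all 16536 genes tested, coloured points are the 59 members by next highest group, and filled ones passed in either contrast. Most filled orange points lie to the left of 0, and most filled purple points lie above 0. The colour classes require these directions in the group means, so nothing is read from them.

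Taken by both contrasts, 23 members were higher in N. vitripennis females than males and did not pass between the males of the species. Another 7 were higher in N. vitripennis females and also in N. giraulti males over N. vitripennis males, among them Nasvi2EG007282, Nasvi2EG010362 and Nasvi2EG001957. The species call of these 3 was not stable. It held in 13 of 16 alternative fits for Nasvi2EG007282 (edgeR adjusted p = 0.0201, up to 0.20 in the alternatives), in 10 of 15 for Nasvi2EG010362 (edgeR adjusted p = 0.0357, up to 0.143) and in 7 of 15 for Nasvi2EG001957 (edgeR adjusted p = 0.0489, up to 0.242). The other 13 of the 16 calls toward N. giraulti held in every fit that tested them, apart from the test against a 2-fold change, which was not counted. In N. giraulti and N. vitripennis males, Nasvi2EG010362 had 20 and 4 reads, and Nasvi2EG001957 had 39 and 8. Both passed the filter through other groups, so nothing is read from their species calls. There were 7 members that passed in the species contrast alone and toward N. giraulti. The 13 members that passed in neither included Nasvi2EG000600, Nasvi2EG026271, Nasvi2EG006469 and Nasvi2EG034498. The first 3 of these are among the 6 members with the greatest distance. A member that did not pass may still differ. The share of all genes in each combination of calls was not counted, so nothing is read from the numbers of members in them.

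The members varied among the N. giraulti female libraries, a measure the rule did not use except through the mean. The highest library exceeded the lowest by a median factor of 1.43 in the members and 1.42 in all 9868 genes of at least 5 CPM in N. giraulti females. More than 2-fold differences were found in 12 members (20.3%) against 11.2% of those genes, and more than 4-fold differences in 6 (10.2%) against 1.99%. Library 2 was the highest of the 3 for 32 members (54.2%) and for 21.5% of the 9868 genes, and with TMM-scaled CPM the shares were 55.9% and 24.5%. Library 1, the highest for 54.2% of the 9868 genes, was the highest for 33.9% of the members. The thresholds apply to the mean of the 3 libraries, to which a single high one contributes. A gene with a single high library is thus more readily chosen. Nothing is read from the differences between the members and all genes in spread or in the highest library.

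The 12 members with more than 2-fold differences fell into 2 patterns. In 5 of them library 1 was highest and library 2 lowest. Nasvi2EG002699 had 266, 23.7 and 92.9 CPM in libraries 1, 2 and 3, and Nasvi2EG001957 had 110, 19.4 and 33.7 CPM. Nasvi2EG006174 had 143, 28.6 and 38.9 CPM, and Nasvi2EG010362 had 67.97, 28.3 and 34.8 CPM. Library 1 was thus well above both others in these 4. The fifth was Nasvi2EG011432, singled out after its values were seen, with 96.3, 0.277 and 12.2 CPM. Its library 2 was below all N. vitripennis female libraries, which held 1.51 to 3.39 CPM, and without library 1 it left the rule. In the other 7 members library 2 was highest, for example in Nasvi2EG016019 with 3.41, 13.3 and 5.64 CPM and in Nasvi2EG008162 with 26.9, 91.95 and 77.8 CPM. The widest of the 7 was Nasvi2EG010014, also named after its values were seen, with 2.41, 12.8 and 1.23 CPM and a mean of 1.82 CPM without library 2. Of the 12 members, 7 left the rule when a single N. giraulti female library was omitted, and of all 59 members 13 did.

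**Figure D4:**
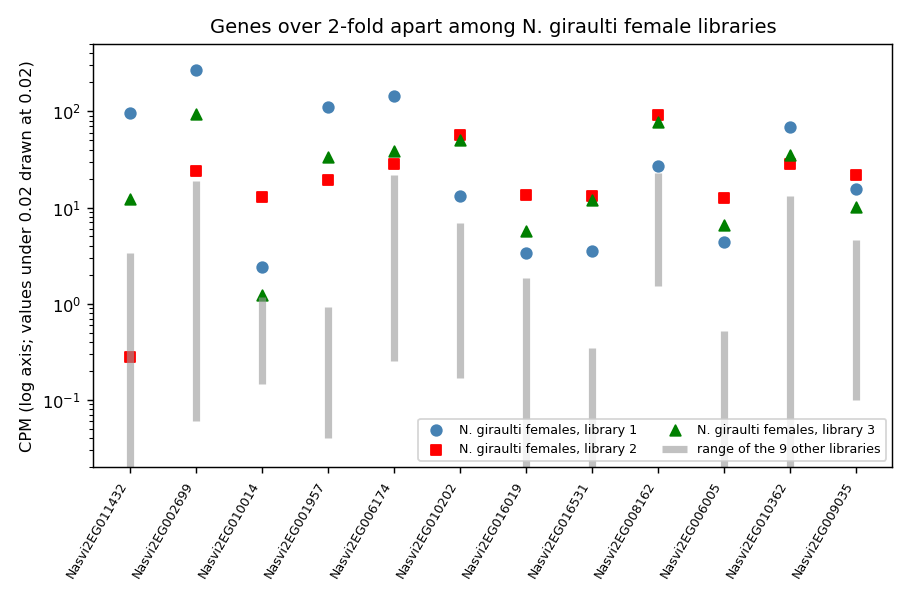
For the 12 members whose N. giraulti female libraries were more than 2-fold apart, coloured points give the CPM of each of these libraries on a log axis, and grey bars span the 9 other libraries. In 11 of the 12 all coloured points lie above the bar, and in Nasvi2EG011432 the point of library 2 lies within it.

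The members were then looked up in the order of the table, whose identifiers run in a single numbering. No position is given with the identifiers, but 88.4% of the rows with fractional counts lay beside another such row. A single run of adjacent members was found, Nasvi2EG034497, Nasvi2EG034498 and Nasvi2EG034499. Thus 3 of the 59 members (5.08%) lay beside another member, where 0.481% of all rows lay beside one. None of the 3 held fractional counts.

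Nasvi2EG034497 had 11.7, 22.7 and 16.9 CPM in N. giraulti females and 2.1, 1.84 and 1.39 CPM in N. vitripennis females. Nasvi2EG034499 had 31.7, 30.6 and 17.9 CPM in N. giraulti females and 2.67, 3.06 and 1.90 CPM in N. vitripennis females. Both stayed under 0.3 CPM in every male library, and both were higher in N. vitripennis females than males, with log2 fold changes of -3.59 (SE 0.62, edgeR adjusted p = 0.000241) and -3.71 (SE 0.40, edgeR adjusted p = 3.83e-06). Nasvi2EG034498 between them had 4.92, 6.90 and 4.46 CPM in N. giraulti females, 1 read in all N. vitripennis female libraries and 0 reads in the males of both species. With 3 counts in each library as the floor, it was at least 53.3-fold higher than in N. vitripennis males and at least 58.1-fold higher than in N. giraulti males. The rows on both sides of the run had at most 0.63 CPM in any N. giraulti female library.

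**Figure D5:**
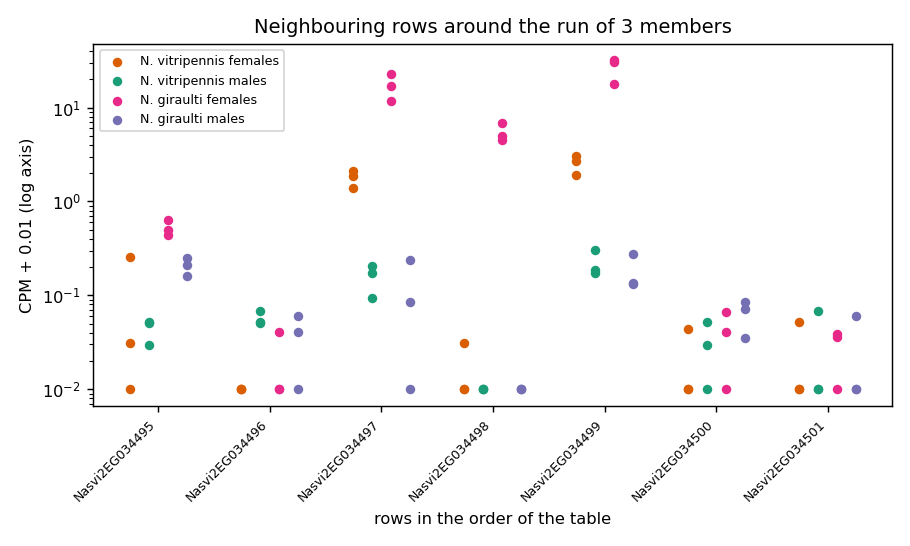
The 3 adjacent members and the 2 rows on each side are shown in table order, with the CPM + 0.01 of each library on a log axis and colour for the group. The 3 members rise above 4 CPM in N. giraulti females, and the rows beside them stay under 1 CPM in all groups.

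Rows beside members were also examined when they were not members themselves. Of 51 such rows with at least 5 CPM in N. giraulti females, 5 (9.80%) had N. giraulti females at least 1 unit above each other group on the log2 scale. Among all genes of that level that were not members, the 51 included, the share was 1.25%. The median distance was -0.29 for the 51 rows and -0.36 for all genes of that level that were not members, so most neighbours were not raised. Nasvi2EG001956, beside Nasvi2EG001957, had 54.2, 5.98 and 11.6 CPM in N. giraulti females, with library 1 highest and library 2 lowest as in its neighbour. Nasvi2EG010361, beside Nasvi2EG010362, had 93.5, 42.7 and 50.1 CPM, again in the order of its neighbour's libraries. Nasvi2EG008143, which lies between the member Nasvi2EG008144 and the near miss Nasvi2EG008142, had 34.3, 86.2 and 72.4 CPM. The other rows were Nasvi2EG004573 and Nasvi2EG027743, and these 5 were named after their values were seen. Nasvi2EG027743 held fractional counts and lies beside the member Nasvi2EG027742, which also held them, so its level is uncertain.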

How the data were processed

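Messenger RNA of 12 libraries was analysed from a table of estimated counts for each gene, unscaled, which the authors deposited. The submitters' processing notes list TopHat2 2.0, HTSeq, Cufflinks 2.1.0, bedtools, edgeR, CASAVA 1.8.2, Trimmomatic and FastQC, with no role or order. The genome build was not given in the sources used here. Fractional counts occurred in 3372 rows (13.9%). Every row carried a gene identifier. Groups came from the labels. Chi-square per degree of freedom was 40.06 to 271 in the 12 pairs of libraries within a group, above the value of 1 that recounting a single library gives. The members and lists were chosen with earlier results of these data known, and gene lists by name could not be run because no identifier matched (0 of 24337, in a table of 15501 genes).

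CPM were counts divided by column sums. For the tests, counts were rounded, filtered with filterByExpr (minimum count of 10, by group) to 16536 genes and scaled by TMM, and all 4 groups entered a single robust quasi-likelihood fit in edgeR 4.0.16 (R 4.3.3), checked on simulated data. Fold changes were recovered there and false calls were rare, but most 2-fold changes and some 4-fold changes were not called, so a gene that did not pass may still differ. An initial requirement on the share of 4-fold changes called was not met in the species contrast and was replaced by the checks of fold size and false calls. Adjusted p-values are Benjamini-Hochberg over all genes tested, with a threshold of 0.05. The SE is the absolute log2 fold change divided by the square root of F. Floors cover counting error alone, while the SD and SE include differences between libraries. Figures were drawn with matplotlib 3.10.9.

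Deviations from the group means correlated at r from 0.20 to 0.708 in the 18 pairs of libraries with the same number and from -0.57 to 0.325 in the 36 other pairs. Libraries of the same number thus tended to vary together, but the ranges overlap and the pairing is not exact. No label says what a number marks, and this pairing was read from the counts. Alternatives were the replicate number as a block, other scalings and filters, DESeq2 1.42.0, the compared groups alone, no fractional rows, each library left out in turn, and, chosen after seeing the data, libraries 2 and 3 alone and a test against a 2-fold change. Members named are the 8 with the most reads, the 6 with the greatest distance, those next to the threshold, in each contrast up to 3 called members per direction with the most extreme change, no overlap of libraries and at least 1 CPM in the higher group, and the longest runs of adjacent rows. Others are said to have been chosen after their values were seen or illustrate a count.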

Additional observations from a re-analysis of the deposited data

How the results depend on the processing

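The number of members moved by over 1.5 times with the rule itself, to 182 at a distance of 1, 24 at a distance of 3 and 29 at a minimum of 20 CPM, and the members nearest to N. vitripennis females to 113, 15 and 23. It was 45 with TMM-scaled CPM, 65 and 50 with offsets of 0.1 and 1 CPM, 55 without fractional rows, and 55 to 67 without single libraries, with 33 to 44 nearest to N. vitripennis females. In the libraries left out, the lowest share meeting the rule was 62.3% with TMM-scaled CPM. With the compared groups alone, 3 members were higher in N. vitripennis males over females and 2 in N. vitripennis males over N. giraulti males, where fewer genes were tested. In the latter direction a test against a 2-fold change left 2, and fits without replicate 2 or without replicate 3 of the N. giraulti males left 2 each of the 4; the cause was not tested. Over single libraries left out, 27 to 30 members were called toward N. vitripennis females and 5 to 8 toward males, 33 to 37 together, and between the males 13 to 16 toward N. giraulti and 2 to 4 toward N. vitripennis, 16 to 19 together.

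With the replicate number as a block, 32 and 6 members were called between the sexes and 16 and 6 between the males of the species. It added Nasvi2EG001446 (adjusted p = 0.0167) and Nasvi2EG016531 (0.0339), both toward N. vitripennis males, and changed no other member's call. Nasvi2EG016531 had 3 reads in N. giraulti males and 18 in N. vitripennis males. It passed the filter through other groups, and nothing is read from its call. Over all genes, the test against a 2-fold change called 6204 between the sexes (2775 higher in males and 3429 in females) and 2746 between the males (1214 toward N. giraulti and 1532 toward N. vitripennis). At a mean of at least 1 CPM 1762 genes were higher in N. vitripennis males over N. giraulti males, against 2742. All-gene counts without single libraries ran from 9604 to 10532 between the sexes (4617 to 5173 and 4848 to 5388) and from 4512 to 5202 between the males (2354 to 2745 and 2075 to 2505). Of the values for called, named members under alternatives, 376 kept the call, 44 lost it and none reversed. Nasvi2EG034498, with at most 1 read in each other group, could show no difference between those groups at this depth.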
